A study of Apis mellifera carnica with 38 samples.

Results

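The 100 host genes described here were chosen in honey bee queen brains for their level in libraries with many reads that did not align to the bee genome. CPM, the count of a gene scaled to a common library total, was computed over the gene counts of each library. The 18 brains were split into 13 with more than 20% of all reads unaligned and 5 with less than 10%. Among 8090 genes with a mean of at least 5 CPM over the brains, of 12332 in the table, the members are the 100 with the highest difference in mean log2(CPM + 1), high minus low. They were then followed in the fat bodies of the queens, which had no part in the choice.

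The study asked how material transferred at mating changes queens, by injecting Apis mellifera carnica virgin queens in the abdomen. The groups were queens injected with Hayes solution, the saline diluent (HS), with seminal fluid mixed with that diluent (SF) or with semen (SE), and virgin queens left untreated (V). None of the queens mated, and the V queens had no needle wound. The semen came from drones of another subspecies, and the fat body samples were the eviscerated abdominal cuticle lined with fat body, so they also hold epidermis and other abdominal cells. There were 5 HS, 3 SF, 5 SE and 5 V brains, and 5 fat bodies in each group, each library from 1 queen.

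The study traced redundant reads in many of these libraries to Deformed wing virus, an RNA virus of honey bees that infects many tissues including the brain. The fat body is the insect organ for storage, for making hemolymph proteins and for much of the humoral immune response. Insects answer infection with peptidoglycan recognition proteins, serine protease cascades and their serpin inhibitors, and antimicrobial peptides, and answer RNA viruses also through RNA interference. Viral reads were not counted here, and the share of unaligned reads stands in for whatever did not align.

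The libraries held between 4832119 and 29963718 reads counted on genes. In brains the unaligned share was 4.05% to 6.08% in the low class and 22.1% to 53.6% in the high class. In fat bodies it was 3.64% to 5.13% in V queens and 49.3% to 71.6% in the 15 injected queens, so injection and unaligned share cannot be told apart there. Depth differed along the same line, with at least 16332047 gene reads in every V fat body and at most 13212533 in any injected one.

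A group of 4 brains departed from their treatment labels. Those labelled C20 and C49 belong to V queens and had 34.3% and 25.1% of reads unaligned. Those labelled S83 (SE) and SP16 (SF) had 4.05% and 6.08%. The fat bodies with the same labels were at 4.08% and 5.13% for C20 and C49, and at 62.1% and 49.3% for S83 and SP16.

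Each of these 4 brains also resembled the fat body of another queen. A set of 30 genes outside the members was taken, each of which varied between queens. Their brain and fat body levels correlated across the other 14 queens (Pearson's r over 0.7, after centring within unaligned class and within V or injected). Over these genes the brain labelled C20 correlated at 0.27 with the fat body labelled C20 and at 0.70 with that labelled S83. The brain labelled S83 had r = 0.31 with the fat body of its own label and 0.56 with that labelled C20, but its highest value was 0.60 with that labelled C68. For the brain labelled C49 the values were -0.06 with its own label and 0.64 with SP16. The brain labelled SP16 gave -0.03 with its own label and 0.64 with C49. Among the other 14 brains, 11 correlated best with the fat body of their own label, and the exceptions were H51 and H74, each closest to the other, and S29, closest to S83 by a margin of under 0.01. The genes were chosen on those 14 queens, so only the 4 brains are free of that choice. The centring left differences between HS, SF and SE in place. The 30 genes include LOC411704 and LOC413021, which the study lists as changed in SF and SE over HS in both tissues. The brain labelled C20 also gave 0.53 with SP79, 0.50 with S24 and S29 and -0.40 with H51 and H74, but -0.14 with SP1. Resemblance by queen and by treatment was not told apart. Over 6 settings of the cutoff and the centring, none of the 4 brains came closest to its own label in any, and the crossed fat body was first in 19 and first or second in all 24 combinations of brain and setting.

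The member LOC412162, on chromosome 7, showed a crossing for C20 and S83 in a single gene. It was either near 0 or near 100 CPM in brains, at 0.17 to 0.57 in 7 libraries and at 104.8 to 122 in the other 11. In 16 of the 18 queens the fat body was on the same side. The brain labelled C20 had 106 CPM against 0.96 in the fat body, and the brain labelled S83 had 0.31 against 68.9. For C49 and SP16 it was near 0 in both tissues and shows no crossing. LOC412162 was not among the 30 genes above. Its brain values were among those that chose the members, with C20 and C49 counted as high and S83 and SP16 as low. In the low class it averaged 79.9 CPM in V brains and 0.24 in S83 and SP16. Its place among the members is therefore not independent of these brains. Which label, if any, is in error was not tested. The labels were kept as given, the 4 brains are called by their labels, and results that rest on them are also given without these queens, an alternative chosen after seeing the data.

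**Figure D1:**
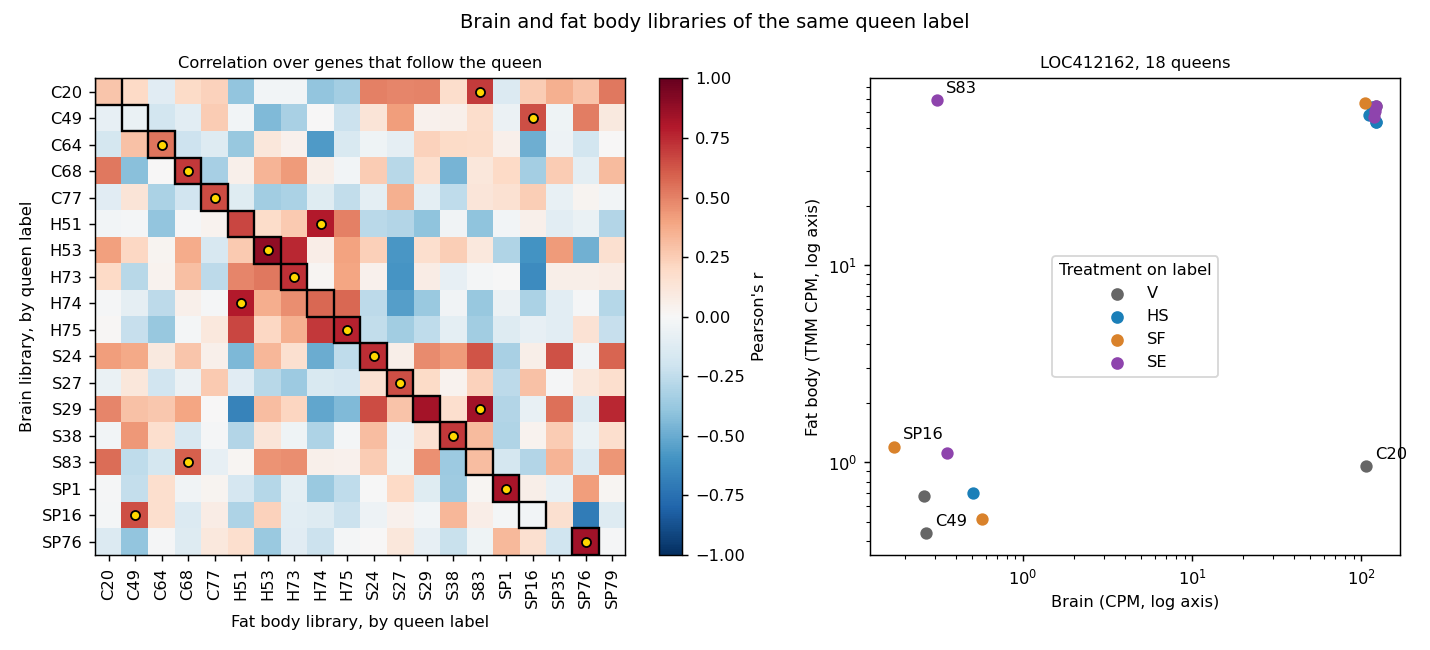
Left, Pearson correlation over 30 genes between each brain (vertical) and each fat body (horizontal), with black boxes on equal queen labels and yellow points on the best match of each brain. Right, LOC412162 in brain (CPM, log axis) and fat body (CPM scaled by TMM factors, log axis) for 18 queens. The brains labelled C20, C49, S83 and SP16 have their best match outside the box, and C20 and S83 sit alone in the right panel.

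In brains the members were higher in the high class by definition, so the brain values are a description. The median difference was 0.95 on the log2 scale, against -0.03 for all ranked genes, with 48 members at 1 or more and 14 at 2 or more. For 45 members all 13 high brains lay above all 5 low brains, a pattern that 1.04% of the ranked genes showed. Without the 4 brains, 50 members had the remaining 11 high brains above the remaining 3 low ones, as did 1.78% of the ranked genes. When the members were chosen anew without those brains, 85 of the 100 were the same genes. The members ranked 96 to 100 had differences of 0.63 to 0.65, and the next 5 genes, LOC725754, LOC409722, LOC726252, LOC408434 and LOC408660, of 0.62.

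The brains labelled C20 and C49 were among the 13 high brains that chose the members, so their levels follow in part from the rule. They carried the members at the level of the injected queens. Both lay above every low brain for 89 members, and their mean was above that of the 11 high injected brains for 68. Over the members, the median of log2(CPM + 1) relative to the low brains was 1.40 and 1.37 in these libraries, the largest values of the 18. It was 1.24 and 1.36 in the high SF brains, 0.94 to 1.09 in the high SE brains and 0.52 to 0.92 in the HS brains. The brains labelled S83 and SP16, 2 of the 5 low brains in that choice, lay below every high brain for 57 members.

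The highest ranked member was the lncRNA LOC113218549 on chromosome 4, at 115 ± 21.7 CPM in high brains (SD, n = 13) and 6.94 ± 1.8 in low brains (SD, n = 5). The high brains spanned 82.4 to 159.5 CPM and the low ones 5.13 to 9.43. LOC100576592 followed, at 76.1 to 126 CPM against 7.59 to 11.9. The third, LOC724644, was among the 3 most abundant members in brains, with 2469 to 4778 CPM in the high class against 379 to 517 in the low class. Pgrp-s2, a short peptidoglycan recognition protein, was at 449 to 1147 CPM in the high brains and 112 to 135 in the low brains. In these 4 genes the classes were apart by at least 3-fold between their nearest libraries.

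Not every member had such a pattern. The royal jelly protein gene Mrjp1 and LOC406093 were high in 1 HS library alone, H75, with 298 and 163 CPM. Every other brain was at 3.48 CPM or below for Mrjp1 and at 5.12 or below for LOC406093. LOC552829 ranged from 2.12 to 224.5 CPM in high brains and from 0.81 to 204 in low brains. For some members the HS brains, all of the high class, lay near the low brains. LOC113219268 was at 5.99 to 8.02 CPM in HS and 5.59 to 7.46 in low brains, and at 20.7 to 61.9 in the other high brains. HS and low brains were also close for LOC413472 (3.69 to 4.76 and 3.28 to 7.19) and LOC410515 (3.22 to 7.52 and 3.81 to 5.03). The study lists LOC113219268 and LOC413472 as raised in SF and SE over HS brains.

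**Figure D2:**
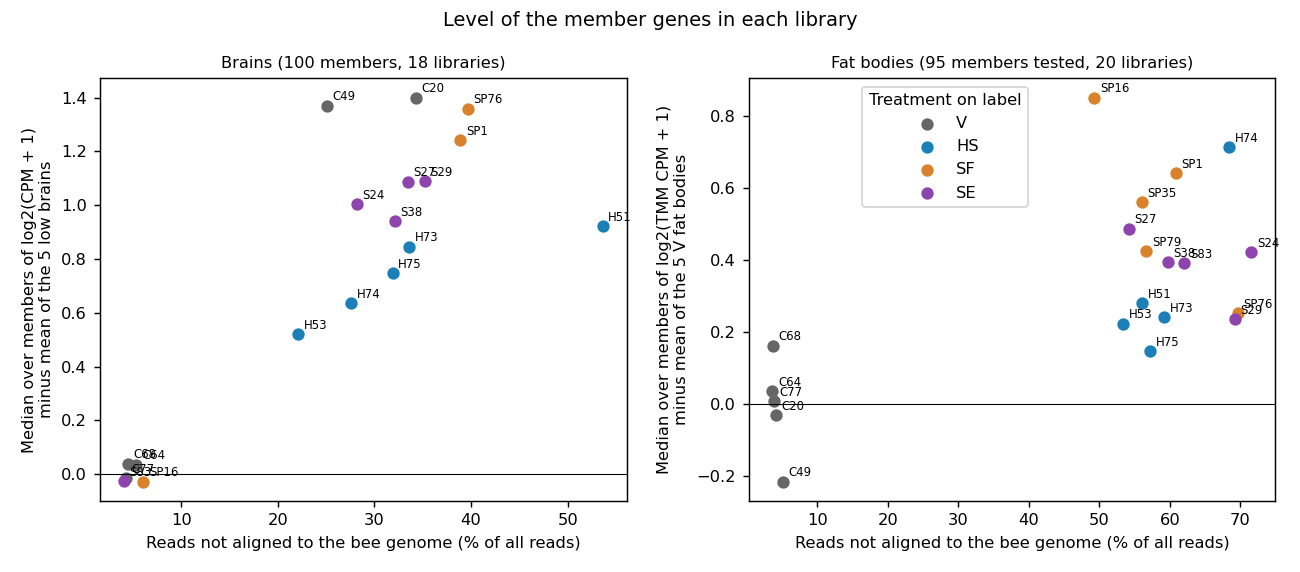
Median over members of the log2 level in each library (vertical; brains relative to the mean of the 5 low brains, fat bodies relative to the mean of the 5 V fat bodies) against the percentage of reads not aligned (horizontal), coloured by the treatment on the label. The brains labelled C20 and C49 stand with the injected brains at 1.40 and 1.37, while their fat bodies lie with the other V fat bodies, between -0.21 and 0.16.

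In fat bodies, whose values the choice did not use, the members were more often higher than lower in injected queens. Most of these fat bodies came from queens whose brains made the choice. By label, 11 of the 13 high brains were from injected queens and 3 of the 5 low brains from V queens. Of 95 members with enough reads to test, 49 were higher in the mean of HS, SF and SE than in V and 11 were lower (edgeR quasi-likelihood test, Benjamini-Hochberg adjusted p under 0.05 over 8403 genes). That is 51.58% higher against 15.5% of all genes tested, and 11.58% lower against 17.8%. Of the 49, 3 had enough reads only through injected fat bodies, and 1 of the 11 only through V ones. The median log2 fold change was 0.49 for the members and 0.01 for all genes. With 21 members the rise was over 1 on the log2 scale, and with 4 the fall was, which held for 1.27% and 2.18% of all genes tested.

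For 16 members the data had all 15 injected fat bodies above all 5 V fat bodies, a pattern found in 2.24% of the genes tested. In 2 members, LOC724114 and LOC726981, all injected fat bodies lay below all V ones, against 2.06% of genes. Leaving out the queens C20, C49, S83 and SP16 gave 33 higher and 12 lower members, where 11.15% and 14.5% of all genes were called, and 32 of the 33 were among the 49. Within the 5 sequencing lanes that held a V fat body, the median of the members was 0.27 to 0.50 above V and the median of all genes was at most 0.01. The remaining lane held 3 injected fat bodies and no V one.

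The treated groups differed from V to unlike extents. HS minus V had 29 higher and 2 lower members (all genes 3.45% and 4.18%), and without the V queen C77 the first count was 19. SF minus V had 48 and 11 (13.6% and 14.5%), and SE minus V had 38 and 10 (16.3% and 17.1%). The 3 comparisons share the same V fat bodies. There were 21 members higher in all 3 and 2 lower in all 3, and 30 were called in none, where the shares of all genes were 2.86%, 3.56% and 61.0%. Another 9 members were called higher in SF alone, 3 in HS alone and 0 in SE alone (2.86%, 0.143% and 5.5% of all genes); these splits were not tested as differences.

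Over the members, the fat bodies labelled C20 and C49 had medians of -0.03 and -0.21 relative to V, below those of the other V fat bodies (0.01 to 0.16), and C49 had the lowest value of the 20 fat bodies. The fat bodies labelled S83 and SP16 were at 0.39 and 0.85, with the other injected ones at 0.15 to 0.71. SP16 had the highest value of the 20, although the brain of that label was among the low ones.

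**Figure D3:**
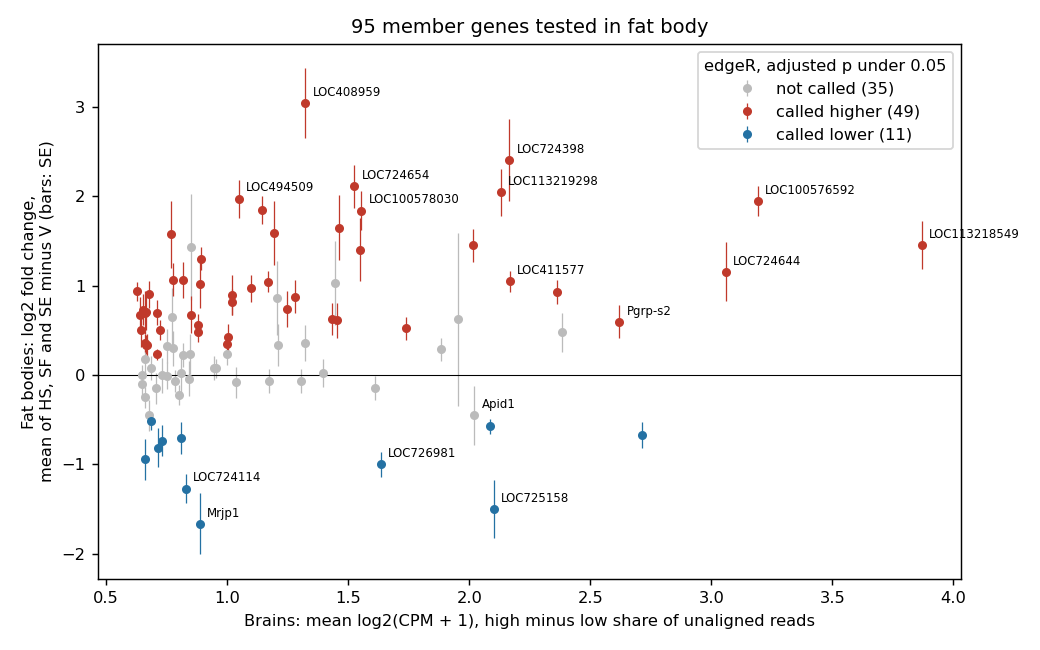
Log2 fold change in fat body of the 95 members tested (vertical, mean of HS, SF and SE minus V, bars are SE) against the difference in brains that chose them (horizontal, log2). Red points are the 49 members called higher, blue points the 11 called lower and grey points the 35 not called at an adjusted p under 0.05.

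Pgrp-s2, LOC724703 and LOC100578030 were called higher in injected fat bodies, and Apid1 and Tg were not called. LOC724703 and LOC100578030 are in none of the gene lists, and their names come from the study's annotation. The fat bodies of V queens had Pgrp-s2, which binds bacterial cell walls, at 394, 461, 496, 453 and 434 CPM, here scaled by TMM (trimmed mean of M-values) factors. HS queens had 853, 535, 1083, 1197 and 699 CPM, SF queens 856, 765, 937, 621 and 464, and SE queens 415, 570, 355, 692 and 405. Every HS library lay above every V library, while SE libraries overlapped them. The mean rise was 0.60 ± 0.18 (log2, SE; edgeR adjusted p = 0.0161), and SE was lower than HS by -0.84 ± 0.22 (adjusted p = 0.0315). The rise lost its call without C20 (adjusted p = 0.0504) and without the 4 queens (adjusted p = 0.101).

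LOC724703, annotated in the study as serine protease 49 with modular serine protease as its Drosophila ortholog, was the last member by rank. In the fly that protease acts upstream of Toll. Fat bodies of V queens had 243 to 315 CPM, and the medians of HS, SF and SE were 405, 661 and 546. All 15 injected libraries were above all V libraries, with a log2 fold change of 0.94 ± 0.10 (edgeR adjusted p = 1.81e-06). SF was also higher than HS, by 0.64 ± 0.12 (adjusted p = 0.00598). LOC100578030, annotated as antitrypsin, a serpin that inhibits serine proteases, was at 692 to 1051 CPM in V queens. HS queens had 1583, 1173, 1594, 3681 and 1193 CPM, SF queens 3872, 5420, 4094, 3546 and 3920, and SE queens 3588, 3374, 3677, 3021 and 4086. The HS queen H74 stood with the SF and SE queens, and all injected queens were above all V queens. The log2 fold change was 1.84 ± 0.22 (adjusted p = 4.48e-06), and SF exceeded HS by 1.18 ± 0.24 (adjusted p = 0.0127). The study itself names antitrypsin among the fat body genes most raised in SF and SE over HS. The SF to HS difference of this gene is therefore not independent of that list.

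Apid1, which encodes the antimicrobial peptide apidaecin, was among the most abundant members in brains, at 798 to 3429 CPM in the high class and 157 to 771 in the low class. In fat bodies it was at 2140 to 8654 CPM in V, 2458 to 6608 in HS queens, 1443 to 6853 in SF queens and 1308 to 4191 in SE queens. The groups overlapped throughout, with a log2 fold change of -0.45 ± 0.33 (adjusted p = 0.307). Tg, a transglutaminase by its symbol and so listed with clotting, had means of 214.5 CPM in V and 206, 242 and 196 in HS, SF and SE (-0.01 ± 0.15, adjusted p = 0.984).

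Genes of the same pathways outside the members were taken from lists matched by symbol, which reached few genes. Of 5 recognition and antimicrobial genes tested, Pgrp-s2 and Apid1 included, 3 were higher and 0 lower in injected fat bodies, the others being Def1 (1.21 ± 0.21) and PGRP-S3 (0.45 ± 0.13). Of 4 Toll and Imd genes, Imd (0.76 ± 0.10) and cact1 (0.95 ± 0.27) were higher, 18-w was lower (-0.48 ± 0.17) and Dl was not called. Of 2 RNA interference genes 0 were higher and 1 was lower, aub (-0.46), while Dcr-1 (0.11 ± 0.08) was not called. Genes with only a LOC symbol, most members among them, could not enter these lists. The 2 genes therefore do not describe RNA interference as a whole, and whether unnamed members belong to it was not looked at. Neither of the 2 melanization and clotting genes tested, Tg among them, was called.

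Several of the genes that rose in fat body are left without a name by the annotation used here. LOC100576592 (chromosome 15), second by rank in brains, was at 44.7, 51.6, 62.9, 54.9 and 57.6 CPM in V queens. The HS queens had 178, 151, 135, 201 and 148 CPM, the SF queens 220.5, 379, 142, 214 and 211 and the SE queens 248.5, 279, 242, 217.5 and 237. No injected library fell below 135 CPM, and the groups did not overlap with V (log2 fold change 1.95 ± 0.16, edgeR adjusted p = 1.58e-07). LOC411577 (chromosome 10) was at 165 to 215.5 CPM in V and at 303 to 516 in the injected queens (1.05 ± 0.12, adjusted p = 3.05e-06). LOC411894 (chromosome 8) had 186 to 339 CPM in V and group means of 870, 796 and 974 in HS, SF and SE (1.84 ± 0.16, adjusted p = 1.58e-07). Means of 56.1 CPM in V and 139, 130 and 147 were found for LOC726766 (1.3 ± 0.13, adjusted p = 6.33e-07).

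LOC494509, one of the more abundant members in fat body, averaged 809 CPM in V and 2343, 4164 and 3308 in HS, SF and SE (1.98 ± 0.21, adjusted p = 1.40e-06). LOC725512 averaged 11.2 CPM in V and 21.9 to 23.8 in the injected groups (1.04 ± 0.12, adjusted p = 2.60e-06). These 6 genes, from LOC100576592 to LOC725512, kept their call in each alternative run. The highest fold change of any member was that of LOC408959, at 3.05 ± 0.39, from 2.51 CPM in V to 11.1, 32.0 and 26.1. It was named after its values were seen. LOC408959 passed the read filter only through injected fat bodies, so its rise over V is not independent of its being tested. Its position overlaps 2 other genes, LOC100577150 and LOC725021, and reads in such overlaps may not be assigned to either.

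The first ranked lncRNA, LOC113218549, was at 31.5, 95.7, 62.8, 85.0 and 46.2 CPM in V fat bodies. HS fat bodies had 175, 81.1, 146, 167 and 54.8 CPM, SF ones 256, 383, 302, 195 and 230, and SE ones 159, 165, 128, 133.5 and 213. All SF and SE libraries were above all V libraries, and 2 HS libraries were within the V range. The log2 fold change was 1.46 ± 0.27 (edgeR adjusted p = 0.00034), and SF was higher than HS by 1.13 ± 0.30 (adjusted p = 0.0481). It overlaps LOC408807. LOC724644, so abundant in brains, was at only 11.9 to 26 CPM in V fat bodies and at 18.3 to 135 in injected ones (1.16 ± 0.33, adjusted p = 0.0108). Without the 4 queens its adjusted p was 0.0724.

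A pair of members that were rare in low brains, LOC113219298 and LOC724398, rose in fat bodies as well. LOC113219298, annotated as a G-protein coupled receptor Mth2-like, was at 0.91 to 2.90 CPM in V and at 3.54 to 16.4 in the injected fat bodies, with no overlap (2.05 ± 0.26, adjusted p = 9.86e-06). It passed the read filter only through injected fat bodies, so this rise is not independent of its being tested. In brains it was at 0.06 to 1.15 CPM in the 5 HS libraries, all of the high class, and at 7.38 to 18.3 in the other high libraries. LOC724398, next to LOC411894 on chromosome 8, averaged 7.25 CPM in V and 22.5, 52.7 and 46.8 in HS, SF and SE (2.41 ± 0.46, adjusted p = 0.000505). LOC100577112 averaged 269 CPM in V and 665 to 788 in the injected groups (1.45 ± 0.18), LOC100577430 averaged 75.5 and 131 to 169 (0.93 ± 0.14), and both were called. LOC552797 rose by 0.52 ± 0.13 (adjusted p = 0.00365), which was 0.0557 without the 4 queens. LOC409367 was not called (0.29 ± 0.13, adjusted p = 0.0857).

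**Figure D4:**
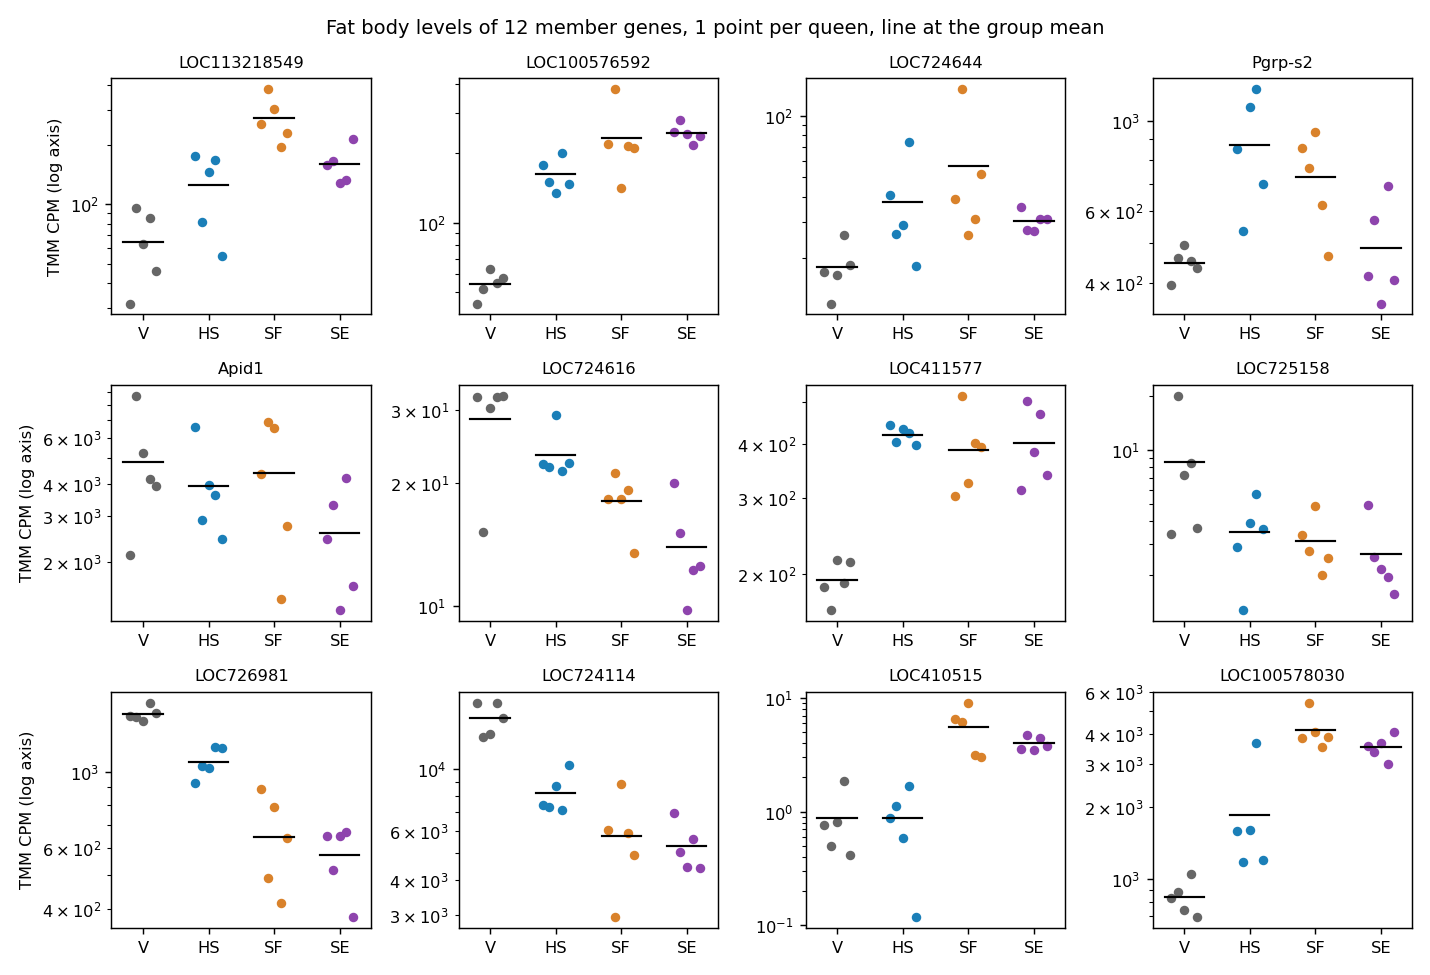
Fat body level of 12 members in each queen (vertical, CPM scaled by TMM factors, log axis) by treatment (horizontal), 1 point per queen with a line at the group mean. LOC100576592 and LOC411577 have every injected queen above every V queen, LOC724114 and LOC726981 have every injected queen below, and Apid1 overlaps in all groups.

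Some of the genes that marked high brains were lower in injected fat bodies. LOC724616, annotated as neprilysin 5, a metallopeptidase that cleaves peptides, was at 17.9 to 58.2 CPM in high brains against 3.18 to 8.56 in low ones. In fat bodies V queens had 32.4, 15.1, 30.4, 32.3 and 32.5 CPM and the means of HS, SF and SE queens were 23.4, 18.0 and 13.9 (-0.67 ± 0.15, edgeR adjusted p = 0.00151). Only the V queen C49 lay within the SF and SE ranges. LOC726981, annotated as protein takeout-like, of a family of secreted proteins thought to bind small hydrophobic ligands, was at 1444, 1435, 1404, 1582 and 1474 CPM in V fat bodies. HS queens ranged from 925 to 1177, SF queens from 415 to 888 and SE queens from 379 to 669 (-1.0 ± 0.14, adjusted p = 1.96e-05). SE was lower than HS by -0.90 ± 0.18 (adjusted p = 0.00767).

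LOC724114 was at 47.3 CPM in high brains and 24.4 in low brains on average, and at 15180 CPM in V fat bodies. Its means in HS, SF and SE fat bodies were 8171, 5744 and 5298 (-1.27 ± 0.16, adjusted p = 9.87e-06). LOC550885 fell from 164 to 121, 104 and 107 CPM (-0.57 ± 0.08, adjusted p = 3.74e-05) and LOC552489 from 61.7 to 52.3, 41.4 and 37.1 (-0.52 ± 0.10, adjusted p = 0.000626). Mrjp1 was at 2.31 to 4.41 CPM in V fat bodies and 0.09 to 4.21 in injected ones (-1.66 ± 0.34, adjusted p = 0.00099), levels of few reads. It passed the read filter only through V fat bodies, so its fall is not independent of its being tested.

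Among other annotated members, the cytochrome b5 type B-like gene LOC724654, of an electron carrier family, averaged 26.5 CPM in V and 76.8, 175 and 111 in HS, SF and SE, with no overlap (2.11 ± 0.24, adjusted p = 2.65e-06). LOC724950, integrin beta-PS-like, a cell adhesion receptor subunit, rose by 0.74 ± 0.20 (adjusted p = 0.00788). LOC409715, a bumetanide-sensitive sodium-(potassium)-chloride cotransporter-like ion carrier, rose by 0.49 ± 0.11 (adjusted p = 0.00289), a call held in 8 of 9 other settings and in all 20 fits without 1 queen. LOC552512, kinesin 3E, a microtubule motor, fell by 0.71 ± 0.18 (adjusted p = 0.00511). The gap junction gene LOC413472 (innexin shaking-B; 0.08 ± 0.10) and the transporter LOC413844 (ATP-binding cassette G5; -0.06 ± 0.13) were not called. Most of these names come from lists that the study chose on these samples, so they are no sample of the members' functions, and their directions in fat body are not independent of that choice.

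Between the injected groups, all with many unaligned reads, few members differed. SF minus HS had 10 higher and 2 lower members (all genes 1.45% and 1.2%), and SE minus HS had 4 and 6 (2.37% and 2.77%). SE minus SF had 0 in either direction (0.0% of all genes), with 13 members and 487 genes at an unadjusted p under 0.05; DESeq2 and limma-voom also called 0 members. LOC410515 passed the filter (1.78 CPM in at least 5 libraries) only through its level in SF and SE, so a difference from HS was built into its being tested. HS fat bodies had 0.12 to 1.68 CPM, SF ones 6.48, 6.10, 9.10, 3.17 and 3.05 and SE ones 3.59, 4.76, 3.47, 4.48 and 3.78, with no overlap between HS and the others. The log2 differences were 2.61 ± 0.43 (edgeR adjusted p = 0.00212) and 2.15 ± 0.44 (adjusted p = 0.0087).

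LOC552190 went the other way, with means of 119, 52.0 and 50.6 CPM for HS, SF and SE and 69.6 for V. It was lower than HS by -1.20 ± 0.25 in SF (edgeR adjusted p = 0.0133) and -1.25 ± 0.25 in SE (adjusted p = 0.00799). The counts between injected groups rested on single queens. Without the HS queen H74, 17 members were higher in SF than HS and 14 in SE than HS. Leaving out any other HS queen or the SF queen SP16 gave 3 to 5 higher in SF than HS, and leaving out the 4 queens gave 2. For SE minus HS the higher count was 1 or 2 without any other HS queen or without S24, S27, S29 or S83. With lane as a covariate the higher counts were 2 and 2.

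In all, 16 members lay in 7 runs of neighbours within 20000 bases of each other on the Amel_HAv3.1 assembly. On chromosome 13, LOC725158 (8695403 to 8696959), Pgrp-s2 (8698178 to 8700676) and LOC100576758 (8700220 to 8701597) stood side by side, the last overlapping Pgrp-s2. In fat body LOC100576758 was not called (0.48 ± 0.22, adjusted p = 0.0964), and LOC725158 fell by 1.5 ± 0.33 (adjusted p = 0.00162), from 3.40 to 19.9 CPM in V to 1.28 to 5.71 in the injected queens. The V queen C49 alone had 19.9 CPM, and the other V queens had 3.40 to 8.42. With 1 queen left out the log2 fold change of LOC725158 was -1.70 to -0.93, called in all 20 fits. On chromosome 16, LOC724422, LOC551252 and Apid1 were neighbours, of which LOC551252 rose by 0.61 ± 0.20 (adjusted p = 0.0221; called in 16 of 20 fits without 1 queen and 7 of 9 other settings) and LOC724422 fell by 0.95 ± 0.23 (adjusted p = 0.0039). The overlapping pair LOC409801 and LOC413168 on chromosome 7 was highest in 3 SF fat bodies, with LOC409801 at 24720 in SP16, 20150 in SP35 and 15810 CPM in SP79 against 1124 to 7437 in all others. In brains the same pair was highest in the library labelled C49, at 3474 and 328 CPM. Of the 97 members placed on chromosomes, 32.0% overlapped another gene, against 34.1% of the ranked genes.

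In brains, the markers of fat body and hemolymph proteins summed to 8837 to 24950 CPM in the high class (median 11580). In the low class they summed to 11100 to 20200 (median 18290). This sum mixes directions. Vg averaged 3592 CPM in high and 8804 in low brains, and the hexamerins were no higher in the high class. Tsf1 (10150 against 7313), JHBP-1 (585 against 369) and the member Vhdl (9.29 against 1.86) were higher. Muscle markers summed to 24.1 to 707 against 101.4 to 163, cuticle markers to 83.4 to 189 against 123 to 193 and eye markers to 102 to 794 against 294 to 587. Head gland products summed to 36.9 to 443 against 45.7 to 53.2 (medians 52.8 and 52.1). For 70 members the mean in V fat bodies was above that in low brains, as for 28.1% of the ranked genes. It was over 5 times the low brain mean for 28 members and 2.98% of ranked genes. The low brain mean was over 5 times that of V fat bodies for 9 members and 12.9% of ranked genes. The part of such tissues in the brain differences was not tested.

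Marker lists of other cells were counted in the same test, in which 15.5% of all genes were higher and 17.8% lower. Of 12 neuron markers tested 0 were higher and 6 lower in injected fat bodies, of 4 muscle markers 0 and 2, of 7 cuticle markers 0 and 1, and of 6 fat body and hemolymph protein genes 3 and 2. Head gland products (5 tested) had 1 higher and 1 lower, the eye (2 tested) 1 and 0, and the 2 glia markers and 1 hemocyte marker were not called. Muscle markers summed to 2430 to 3068 CPM in V and 1911 to 2998 in injected fat bodies. In such tissue fewer cells of a type and less RNA per cell cannot be told apart, and the part of cell makeup in the members' values was not tested.

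The 5 members without enough fat body reads were Vhdl, LOC725668, LOC100576982, LOC552829 and the lncRNA LOC107965873. Vhdl, a very high density lipoprotein by its symbol, averaged 9.29 CPM in high brains, 1.86 in low brains and 0.75 to 1.14 in the fat body groups. A further 6 members, LOC410515, LOC408959 and LOC113219298 among them, passed the filter only through injected fat bodies, and Mrjp1 only through V ones. Injected or V fat bodies counted as passing when at least 5 of them reached 1.78 CPM, which for V means all 5. Of the 6, 3 were called higher and LOC724422 was called lower. The member LOC413324 was at 7303 CPM in high and 3605 in low brains, and at 13220 CPM in V against 19430, 24480 and 26530 in HS, SF and SE fat bodies (0.82 ± 0.14, edgeR adjusted p = 0.000235). The unplaced rRNA gene LOC113219383 rose by 1.02 ± 0.27 (adjusted p = 0.00586).

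Of the members at the end of the ranking besides LOC724703, LOC107965854 rose (0.67 ± 0.20, adjusted p = 0.016), and LOC724293 (0.00 ± 0.11) and LOC409814 (-0.10 ± 0.13) were not called. LOC409966 was at 0.51 ± 0.19 (adjusted p = 0.0463), a call that held in 7 of 20 fits without 1 queen and in 3 of 9 other settings. Calls of a rise were spread over the ranking, with 14, 14, 8 and 13 in successive groups of 25 ranks, and calls of a fall with 4, 0, 4 and 3.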

How the data were processed

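RNA from brains and fat bodies of single queens was sequenced on 6 lanes as single-end reads. Per the labels and the study's methods, the authors trimmed reads with cutadapt, aligned them with HISAT2 to Amel_HAv3.1 and deposited raw counts per gene (HTSeq, whole gene spans, so introns are included) with rows of unassigned reads. The rows that name no gene were used only for the unaligned share, which is a percentage of all rows. All 12332 gene IDs matched the RefSeq table of that assembly, which holds symbols and positions but no descriptions. Names of other members come from the study's annotation.

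Fat body counts of the 20 libraries, 4832119 to 29963718 reads, were fitted in 1 model of 4 groups by edgeR 4.0.16 in R 4.3.3 (TMM, filterByExpr minimum count 20, quasi-likelihood test, Benjamini-Hochberg adjustment over 8403 genes). Fold changes are log2 with SE. No 2 libraries of a group were copies (smallest chi-square per degree of freedom 16.3 over 73 pairs, genes with at least 20 reads). In simulated counts for the mean of the injected groups minus V (8390 genes), 99 of 100 genes changed by 1 on the log2 scale and 29 of 100 changed by 0.5 were called. The simulation gave every gene the same spread between queens and held no outlying queen. It therefore does not give the recovery in these data. Replicates are separate queens. Alternatives were DESeq2 1.42.0, limma-voom 3.58.1, other scaling factors, filters, lane, thinning to 4832119 reads, other choices of members and leaving out libraries.

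The members, the gene lists and the tests were chosen with earlier results of these data known, and the symbol lists after the reference table was seen. Named are the 20 members with the largest brain difference, the 6 with the smallest p called higher and the 6 called lower in fat body, immune list members, the 3 with the smallest p in each comparison between injected groups, ranks 96 to 105, the 3 most abundant in brains and the 5 not tested in fat body. Other members are named after their values were seen, where a run of neighbours, a study annotation or a count required it. Genes for the queen check had a mean of at least 5 CPM and an SD over 0.25 in both tissues.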

Additional observations from a re-analysis of the deposited data

Results flagged for a closer look

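Among the named members, 140 groups of 5 fat bodies were searched for 1 library far from the other 4, and 11 were found, where chance gives about 1 in 20. The HS queen H74 was the highest of its group for LOC724398 (61.8 CPM, next 17.1), LOC100577112 (906 CPM, next 648) and LOC100578030 (3680 CPM, next 1590). LOC412162 was lowest in the HS queen H75 (0.703 CPM, next 53.1) and the SE queen S24 (1.12 CPM, next 56.8), and the brains of the same labels were also near 0. The SF queen SP16 was highest for LOC724644 (135 CPM, next 51.5). LOC724616 was lowest in the V queen C49 (15.1 CPM, next 30.4) and highest in the HS queen H73 (29.2 CPM, next 22.4). LOC725158 was highest in the SE queen S24 (4.93 CPM, next 2.54), LOC552489 in the V queen C64 (73.3 CPM, next 60.2) and LOC410515 in the V queen C68 (1.88 CPM, next 0.809). No cause was tested for any of them.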

How the results depend on the processing

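The number of members higher in the mean of HS, SF and SE than in V was within 1.5 times its value in every alternative run. The number lower was 7 where each gene needed 20 reads in every library, which also gave 7 lower in SF minus V; this filter tests fewer genes. In HS minus V the lower count was 4 by DESeq2, 1 with library sizes alone, 4 with only the groups compared and 1 without the queens C20, C49, S83 and SP16. In SF minus HS the higher and lower counts were 3 and 1 with only the groups compared, 2 and 1 with the lane covariate and 2 and 1 without those 4 queens. In SE minus HS the higher count was 10 by DESeq2 and 2 with 20 reads in every library, and with the lane covariate the counts were 2 higher and 3 lower. Causes were not tested. Members chosen in V brains only, by label 2 high and 3 low, were lower in 20.0% of those tested, and members chosen without the 4 queens were higher in 51.58% and lower in 13.68%. Leaving out 1 queen gave 42 to 52 higher and 11 to 14 lower members in the mean of the injected groups, 19 to 32 and 2 to 4 in HS minus V (4 lower without C49), 45 to 50 and 8 to 11 in SF minus V, 33 to 40 and 10 to 12 in SE minus V, 3 to 17 and 1 to 4 in SF minus HS, 1 to 14 and 2 to 8 in SE minus HS and 0 in SE minus SF. The lower count in SF minus HS was 4 without H74 and 1 without any other HS queen, SP16 or SP79, and that in SE minus HS was 2 without H51, H73 or S83 and 3 without S29. Library sizes alone moved the share of higher among all calls from 45.2% to 64.7% in HS minus V, from 54.7% to 21.5% in SF minus HS and from 46.1% to 30.1% in SE minus HS, and the lane covariate gave 26.1% and 29.9% in the last 2. The signs of members near 0 turned. Tg was at 0.0035 by limma-voom, 0.013 with library sizes alone and -0.12 to 0.098 with 1 queen left out. LOC724293 was at -0.00332 by DESeq2 and by RLE factors, -0.00605 with no filter, -0.015 with 20 reads in every library, -0.018 with the lane covariate, -0.0041 after thinning, -0.14 without the 4 queens and -0.096 to 0.078 with 1 queen left out. LOC552190 was at -0.13 to 0.034 with 1 queen left out, and LOC412162 at -0.026 without the 4 queens. The call of LOC409966 held in 7 of 20 fits without 1 queen and in 3 of 9 other settings (adjusted p = 0.317 after thinning), and LOC107965854 lost it without C64 or C77 (adjusted p = 0.0621 and 0.0571). No paired analysis was possible because the groups compared hold different queens that share no number. Depth is lowest in the injected fat bodies, so members of a few CPM rest on few reads there.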
